A study of Mus musculus with 2 samples.

Results

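Small RNAs that lie antisense to protein-coding genes were examined in mouse testis with and without Tdrkh. A gene was taken when sequences matching it exactly in antisense, matching no transcript in sense and matching at most 20 genes gave at least 50 reads of 24 to 37 nt over both libraries. Of 21951 protein-coding genes in the GENCODE M21 annotation (GRCm38), 10974 had at least 1 such read and 1710 reached the minimum. The 1710 genes were thus chosen by their number of antisense reads, so their abundance is a description. At the threshold, 25 genes had exactly 50 reads and 17 genes outside it had 49.

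PIWI-interacting RNAs (piRNAs) are small RNAs of germ cells that guide PIWI proteins to transposons and other transcripts. A precursor is cut at a 5′ end that usually carries U, loaded into a PIWI protein and trimmed at its 3′ end, and TDRKH is a mitochondrial Tudor protein of that last part of the pathway. Reads antisense to a gene can be made from a precursor transcribed from the other strand, can pair with the gene's transcript, and can take part in ping-pong cutting, in which the 5′ ends of a sense and an antisense piRNA lie 10 nt apart and a U at position 1 of one read faces an A at position 10 of the other.

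The 2 libraries held small RNAs of whole testis at 11 days post partum, each from 5 pooled pairs of testes, with 1 library per genotype. The Tdrkh-/- mice lacked exons 2 to 4 of Tdrkh, which include the start codon, in both copies. The Tdrkh+/- control mice lacked them in 1 copy. Both genotypes derived from a floxed allele on a C57Bl6/129 background that had been recombined by an EIIa-Cre transgene, later bred out by intercrossing. With 1 library per genotype there is no replicate check and no test. Intervals below cover counting error only, and fewer cells of a type cannot be told apart from less small RNA per cell. The Tdrkh-/- library listed 60973266 reads and the Tdrkh+/- library 43172204, of which 2486303 and 2363475 were microRNA reads, the unit by which levels were scaled. Sense fragments of all 4 germ cell, 4 Sertoli cell and 4 Leydig cell markers looked up were present in both libraries. The germ cell markers (Ddx4, Dazl, Sycp3, Zbtb16) gave 2770 sense reads in Tdrkh-/- and 5967 in Tdrkh+/-, though Ddx4 had 548 and 344. The Sertoli cell markers gave 798 and 808. The Leydig cell markers gave 1568 and 821, of which Star, itself an antisense gene, gave 1456 and 724. Both peritubular and all 4 globin genes gave sense reads in each library as well, while the 3 macrophage markers gave 22 and 31 reads, with Adgre1 at 0. The part of cell composition in the results was not tested.

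The most abundant antisense sequence of up to 30 nt is printed for 7 genes, chosen because the abundance, the direction of change or both differ among them. Reads are given 5′ to 3′ with U written as T, and capitals mark positions 1 and 10, the positions that ping-pong cutting would pair.
Mfsd4a: TtatagtctCcttacaaagttctttggcct
Mroh2a: TagcaataaAtctgagagcctggcacct
D10Wsu102e: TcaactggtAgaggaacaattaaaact
Ank3: TtccagataAgaaggcaaggactcttc
Zfp697: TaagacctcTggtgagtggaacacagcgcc
Gm10600: TtcggagatAgaaaatacattttgggta
Kcnk10: TtgatgatgTtgtcctcagaagcgccc
The Mfsd4a read (chr1:132027904-132027933, plus strand, 3′UTR) was counted 7030 times in Tdrkh-/- and 4594 times in Tdrkh+/-. The Mroh2a read (chr1:88262133-88262160, minus strand, 3′UTR) was counted 13138 and 14485 times. All 7 start with T, and 4 of them have A at position 10. The D10Wsu102e read (chr10:83469767-83469793, minus strand) was nearly absent without Tdrkh, with 149 reads against 4184, and the Zfp697 read (chr3:98411597-98411626, minus strand, in 10 genes) went the other way, with 2155 reads against 108. The Gm10600 read (chr4:42242219-42242246, minus strand) had 21 and 1632 reads, the Kcnk10 read (chr12:98435090-98435116, plus strand, coding) 1 and 104, and the Ank3 read (chr10:69988821-69988847, minus strand, coding) 0 and 137.

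The antisense reads were concentrated in few genes. Mfsd4a alone held 25.1% of them, the first 3 genes (Mfsd4a, Mroh2a and D10Wsu102e) 47.2%, and the first 10 genes 55.2%. The median gene had 117 antisense reads and 730 genes had fewer than 100. In 1132 genes at least 90% of the reads came from sequences found in that gene alone. In 181 genes under 10% did, and 166 genes shared most of their reads with a more abundant gene, so their values repeat those of another locus. Antisense reads outnumbered sense reads of the same size in 426 genes, and the median share of antisense reads in a gene's total was 16.9%. The X chromosome held 23 such genes of 948 (2.43%) and the Y chromosome 3 of 183 (1.64%), against 7.79% of all protein-coding genes.

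Sums over all 1710 genes took every read, and took it once however many genes it matched. Short antisense reads of the usual piRNA size (24 to 30 nt) came to 207745 without Tdrkh and 330457 in the control. That is 0.0836 and 0.140 reads per microRNA read, a ratio of 0.598 (95% interval 0.594 to 0.601). Reads of 31 to 37 nt went the other way, with 447651 and 64296 reads and a ratio of 6.62 (6.56 to 6.67). Sense reads of the same genes had ratios of 0.843 and 7.31, and sense reads of all protein-coding genes 0.468 and 4.88. The 3 leading genes weighed on the longer reads: without them the antisense ratios were 0.549 and 4.61.

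The lengths of the antisense reads formed 1 peak at 27 nt in Tdrkh+/-, which held 23.1% of the reads of 24 to 37 nt. In Tdrkh-/- the same length held 5.96%, and the most frequent length was 35 nt with 13.2%. Sense reads of the same genes peaked at 27 nt in Tdrkh+/- and at 31 nt in Tdrkh-/-. The antisense mean was 31.95 nt without Tdrkh and 28.50 nt with 1 intact copy. Among 1316 genes with at least 20 antisense reads in each library, 1257 had the longer mean in Tdrkh-/-, and the median difference was 3.12 nt. The shift was smaller at a fixed start: among 989 start positions with 20 or more reads in both libraries, 849 (85.8%) carried longer reads in Tdrkh-/-, with a median difference of 1.59 nt.

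**Figure D1:**
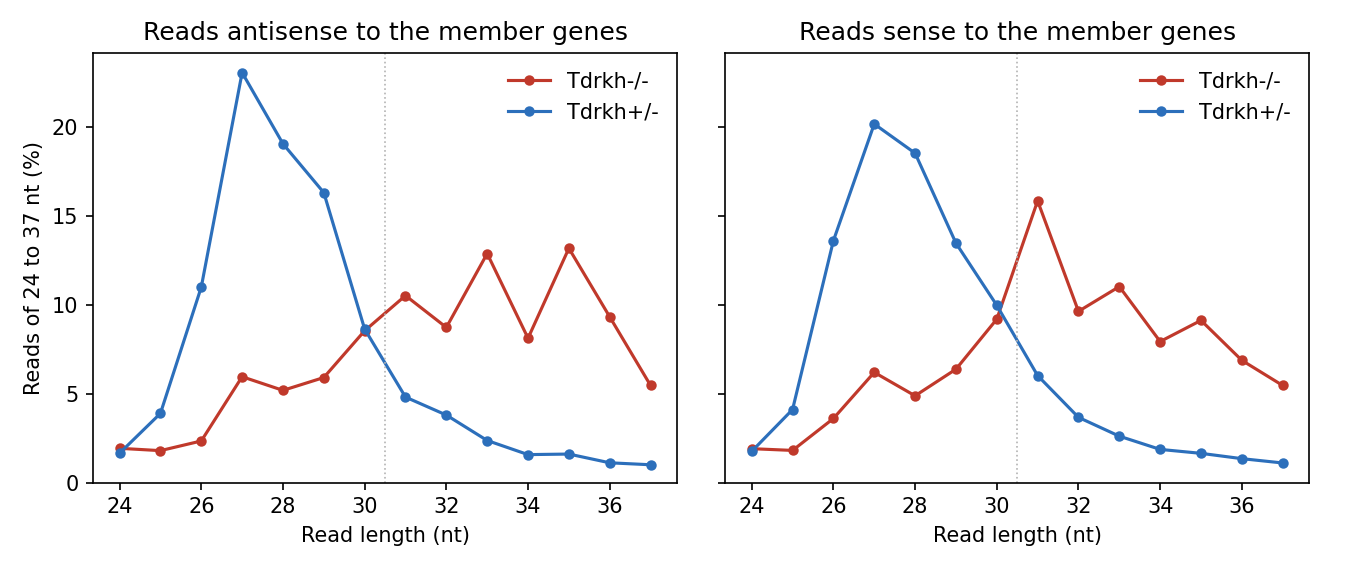
Share of reads of 24 to 37 nt at each length (nt), for reads antisense (left) and sense (right) to the 1710 genes, in Tdrkh-/- (red) and Tdrkh+/- (blue), 1 library each. The blue curves peak at 27 nt on both strands, and the red antisense curve is highest at 35 nt and the red sense curve at 31 nt; the dotted line separates the 2 size classes.

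Gene by gene, the short class (24 to 30 nt) fell 2-fold or more without Tdrkh in 967 of the 1602 genes with 20 or more such reads over both libraries (60.4%) and rose as much in 202 (12.6%). The median log2 ratio was -1.45. The same count over sense reads of 12878 protein-coding genes gave 67.5% lower and 3.34% higher, around a median of -1.44. For sense reads of the antisense genes themselves the shares were 57.9% and 9.01%. The long class (31 to 37 nt) rose 2-fold or more in 1092 of 1383 genes (79%) and fell as much in 44 (3.18%), around a median of 2.25, against 69.9% and 1.49% and a median of 1.48 for sense reads of 12579 protein-coding genes, and 74.2% and 1.92% for sense reads of the antisense genes. Fewer short and more long antisense reads went together in 928 of the 1275 genes with both values (72.8%), beside 84.8% of 12447 protein-coding genes for sense reads. Both size classes rose by that much in 135 genes (10.6%) and fell by it in 38 (2.98%), compared with 2.58% and 1.29% for sense reads. A higher ratio of long to short reads in Tdrkh-/- was nearly general, in 96.7% of genes antisense and 97.5% sense. Scaling to all reads listed in place of microRNA reads would lower every log2 ratio by 0.42, and scaling to reads matching a transcript in sense by 0.44.

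**Figure D2:**
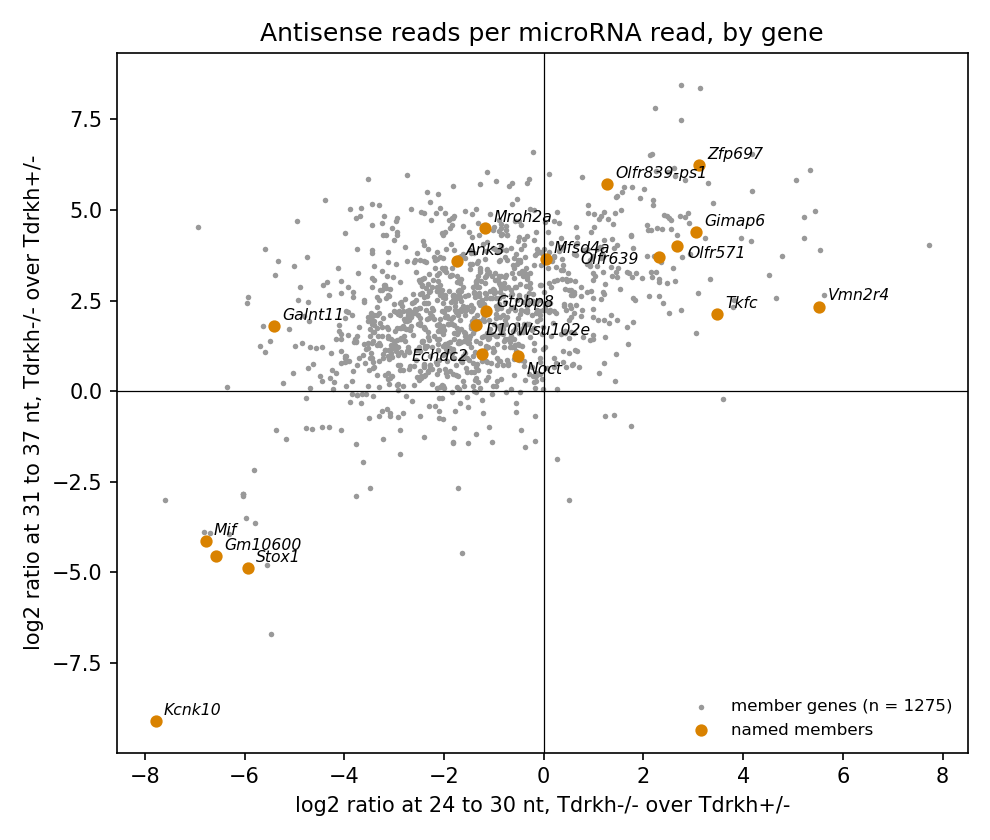
Each grey point is 1 of 1275 genes with at least 20 antisense reads in each size class, and orange points are named genes; the axes give the log2 ratio of Tdrkh-/- over Tdrkh+/- per microRNA read at 24 to 30 nt (horizontal) and at 31 to 37 nt (vertical). Of these genes 928 lie upper left (fewer short, more long reads), while Kcnk10, Gm10600, Stox1 and Mif lie lower left, below 0 on both axes.

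Antisense and sense log2 ratios of the same gene had a Pearson r of 0.32 across 1448 genes at 24 to 30 nt and of 0.17 across 1199 genes at 31 to 37 nt. These are descriptions across genes that share both libraries.

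The most abundant antisense gene was Mfsd4a, which encodes a predicted solute carrier of the major facilitator superfamily (chr1:132022806-132068062, minus strand). Its short antisense reads numbered 59004 without Tdrkh and 54546 in the control, a log2 ratio of 0.04 (0.02 to 0.06) that fell below 0 under either other scaling (-0.38 and -0.40). At 31 to 37 nt it had 138918 and 10608 reads, 12.4-fold more without Tdrkh. The short class was thus about level and the long class far higher. Antisense reads made up 99.8% of all reads matched to Mfsd4a on either strand, 98.7% of them lay in the 3′UTR, and 96.6% and 93.2% started with U in Tdrkh-/- and Tdrkh+/-. They ran along the part of Mfsd4a that lies within Elk4, a gene for an ETS-domain transcription factor on the opposite strand. By the rule they match no annotated Elk4 transcript in sense. The sense reads of Elk4 itself did not share the level short class: they numbered 9817 and 24358 at 24 to 30 nt (log2 -1.38) and 18916 and 3331 at 31 to 37 nt (log2 2.43).

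Mroh2a, a member of a family of heat-repeat proteins (chr1:88226986-88262289, plus strand), had 26883 short antisense reads without Tdrkh, 2.26-fold fewer than the 57713 of the control. At 31 to 37 nt it had 71281 and 2987, 22.7-fold more. Nearly all of this came from 1 place: a single 5′ end gave 85.2% of its reads, whose reads averaged 28.2 nt in the control and 33.1 nt without Tdrkh. By contrast the leading 5′ end of Mfsd4a gave 12.5% of reads and averaged 32.98 nt in the control and 32.99 nt without Tdrkh, though 156 of the 168 Mfsd4a ends that reached 20 reads in both libraries carried longer reads in Tdrkh-/-. The Mroh2a reads lie past the 3′ end of Hjurp, a histone chaperone gene of the centromere, on its strand. Hjurp sense reads had 2557 and 13963 counts at 24 to 30 nt and 4983 and 1973 at 31 to 37 nt, log2 ratios of -2.52 and 1.26.

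**Figure D3:**
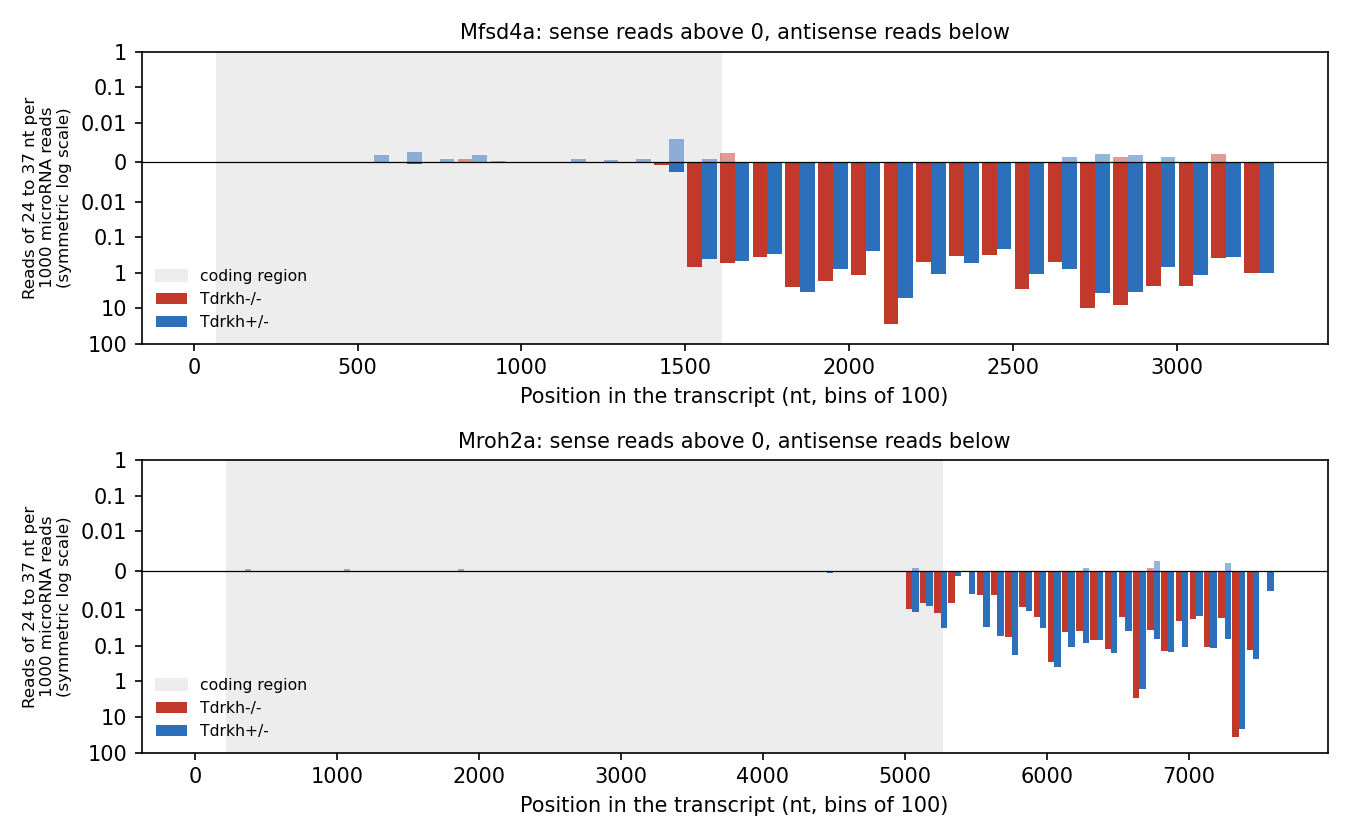
Reads of 24 to 37 nt per 1000 microRNA reads in bins of 100 nt along the Mfsd4a (top) and Mroh2a (bottom) transcript, on a symmetric log scale, with antisense reads below 0, sense reads in lighter bars above 0, and the coding region shaded; red is Tdrkh-/- and blue is Tdrkh+/-. Antisense reads of Mfsd4a fill the 3′UTR, with 38.1% in the highest bin, while 88.3% of those of Mroh2a fall in 1 bin near the transcript's end.

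D10Wsu102e is an uncharacterised gene with a transcript model of 123179 nt that also gave a large number of sense reads (chromosome 10). It had 10467 and 25649 antisense reads of 24 to 30 nt and 29797 and 7960 of 31 to 37 nt in Tdrkh-/- and Tdrkh+/-, log2 ratios of -1.37 and 1.83. Its antisense reads were 5.4% of the total on both strands. Noct, which encodes nocturnin, a protein of circadian metabolism, was of the same kind, with 2.7% antisense. Noct had 2836 and 3850 short reads and 3728 and 1792 long reads, log2 ratios of -0.51 and 0.98, with 99.98% of them in its annotated 5′UTR.

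Gtpbp8 and Echdc2, which encode a GTP-binding and an enoyl-CoA hydratase-like protein, were instead 96.7% and 99.5% antisense. Their reads lie past the 3′ ends of Nepro and Zyg11a on the other strand. Gtpbp8 had 2635 and 5589 reads of 24 to 30 nt and 4632 and 947 of 31 to 37 nt, log2 ratios of -1.16 and 2.22. Echdc2 had 1755 and 3932 short and 4298 and 2017 long reads, log2 ratios of -1.24 and 1.02. Ank3, the gene of the membrane scaffold ankyrin-G, had antisense reads within its coding exons and none in its UTRs: 1127 and 3555 short reads (log2 -1.73) and 4966 and 394 long reads (log2 3.58). These genes thus showed fewer short and more long reads without Tdrkh.

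**Figure D4:**
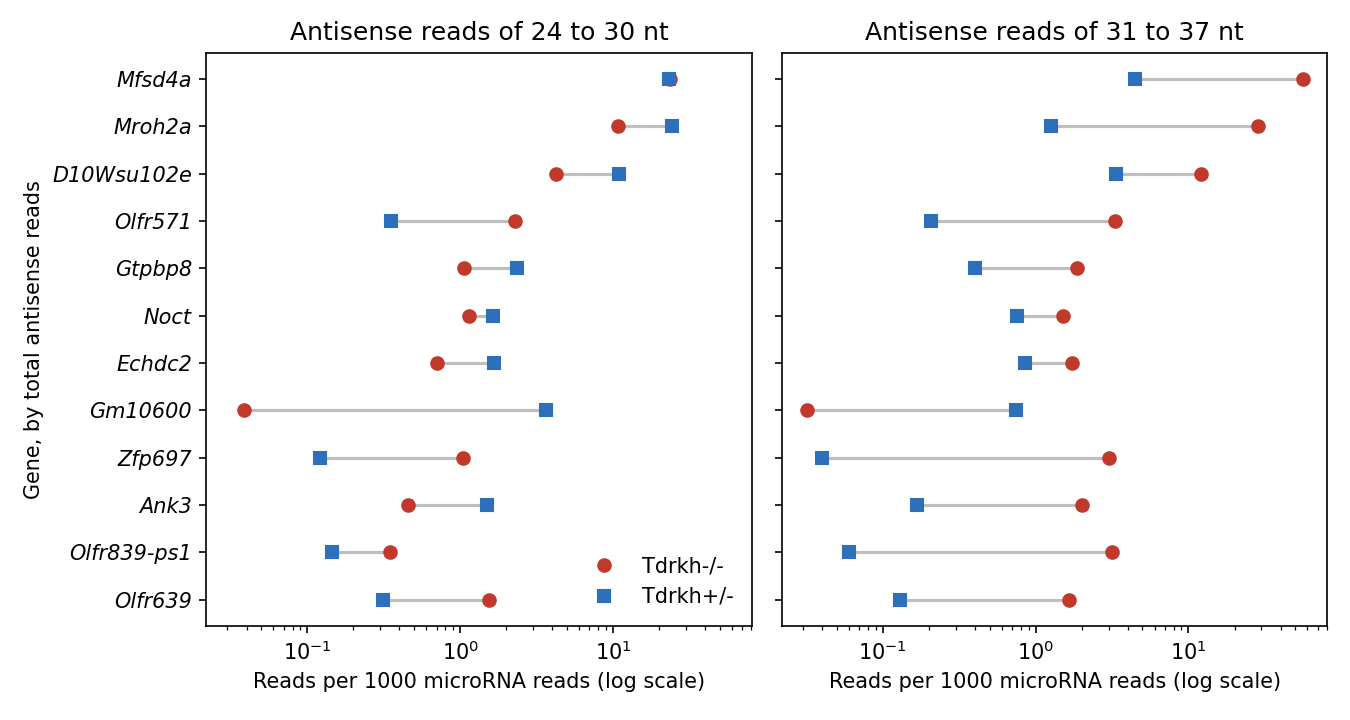
Antisense reads per 1000 microRNA reads (log scale) of the 12 genes with most antisense reads, at 24 to 30 nt (left) and 31 to 37 nt (right), in Tdrkh-/- (red circles) and Tdrkh+/- (blue squares), 1 library each. At 31 to 37 nt 11 of the 12 are higher in Tdrkh-/-, with Gm10600 the exception; at 24 to 30 nt Mfsd4a is about level, Olfr571, Zfp697, Olfr839-ps1 and Olfr639 are higher and the rest lower.

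A few genes lost both size classes. Gm10600, a predicted gene that shares reads with 8 other antisense genes including Gm2163, Gm3893 and Fam205a1, had 95 short antisense reads without Tdrkh and 8559 in the control (log2 -6.57), and 79 and 1750 of 31 to 37 nt (log2 -4.54). Kcnk10, a background potassium channel gene, had 13 and 2718 short reads (log2 -7.78) and 1 and 518 long reads (log2 -9.09, -14.4 to -6.61), spread over 422 5′ ends in its coding region and 3′UTR. Mif, the gene of a macrophage-derived cytokine, had 10 and 1045 short reads (log2 -6.78) and 0 and 50 long reads. With the 0 set to 3 counts its long reads were 17.5-fold fewer, and the interval reached up to a log2 ratio of -3.78. Stox1, which encodes a winged-helix protein, had 29 and 1689 short reads (log2 -5.94) and 14 and 389 long reads (log2 -4.87), 98% of them coding. Kcnk10 and Stox1 reads came from sequences in those genes alone, and their sense reads were few or moved less: Stox1 had 225 and 455 sense reads of 24 to 30 nt and 620 and 85 of 31 to 37 nt. Gm10600 sense reads fell too, with 54 and 2149 short (log2 -5.39) and 61 and 789 long (log2 -3.77). Mif had 303 and 4096 short sense reads (log2 -3.83) and 770 and 550 long ones (log2 0.41).

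At the other end, 5 genes with at least 500 short antisense reads (of 126 such genes) had the highest ratios at 24 to 30 nt. Pcgf5, a Polycomb group gene, had 547 reads in Tdrkh-/- and 1 in Tdrkh+/- (log2 9.02, 6.54 to 14.3) and no longer read in either. Vmn2r4, a vomeronasal receptor gene, had 3529 and 73 short reads (log2 5.52) against 69 and 13 long ones. Tkfc, which encodes triokinase of fructose metabolism, had 1384 and 119 short reads (log2 3.47) and 306 and 67 long ones (log2 2.12). Gimap6, a lymphocyte GTPase gene, had 579 and 66 (log2 3.06) and 882 and 40 (log2 4.39). Zfp697, a zinc finger gene, had 2605 and 286 (log2 3.11) and 7489 and 95 (log2 6.23). Both classes were thus higher in all of these but Pcgf5. The first 5′ end held 99.8% of the Pcgf5 reads, 87.6% for Tkfc, 84.0% for Gimap6 and 56.2% for Zfp697, but 37.7% for Vmn2r4, whose reads had 19 ends. The leading Pcgf5 and Tkfc reads hold the 13-nt word ggccagcctggtc, in 1 of them as its reverse complement. This word is found in sense in transcripts of 1363 genes and in antisense in 1526.

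Olfr571, an olfactory receptor gene, and Galnt11, which encodes an enzyme that starts O-glycosylation of proteins, are shown together because their leading antisense reads differ by 1 base and went opposite ways. Capitals again mark positions 1 and 10.
Olfr571: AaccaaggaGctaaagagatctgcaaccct
Galnt11: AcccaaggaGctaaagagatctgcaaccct
Counted from the 5′ end the difference is A2C (Olfr571 first). The Olfr571 read (chr7:102907012-102907041, plus strand) was counted 2222 times in Tdrkh-/- and 126 times in Tdrkh+/-, and the Galnt11 read (chr5:25224890-25224919, minus strand, in 2 genes) 0 and 496 times. Olfr571 as a whole had 5657 and 839 short reads (log2 2.68) and 8260 and 487 long reads (log2 4.01), and Galnt11 16 and 642 short reads (log2 -5.40) and 292 and 80 long reads (log2 1.79). The remaining 28 bases of the 2 reads occur in antisense in 10 genes and in sense in 13.

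Where the reads lie was read from 1 transcript per gene, the one with most antisense reads, so these shares partly follow that choice. The 3′UTR, with 39.7% of the bases, held 72.1% of antisense reads without Tdrkh and 63.5% of those of the control. Without Mfsd4a, Mroh2a and D10Wsu102e the shares were 48.5% and 42.0% on 38.6%. Coding regions held 6.38% and 15.6% of the reads on 30.1% of the bases. Transcripts with no annotated coding part, such as those of Zfp697 and Echdc2, held 19.1% and 17.0% on 25.5%. These 2 classes also moved without the 3 leading genes, coding regions to 11.3% and 24.5% on 30.6% of the bases and transcripts with no coding part to 35.5% and 27.2%, above their share of the bases.

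Reads across an exon junction were rare: 0.45% and 0.526% of antisense reads crossed one, whereas 4.59% of start positions would give a 27-nt read that does. In 15 genes at least as many reads crossed a junction as did not, among them Gata1 (67 of 67 reads) and Cntn2. For Mfsd4a the share was 0.995%.

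Many antisense reads lay in or near a gene on the strand they came from. Of reads from sequences in 1 gene alone, 34.9% in Tdrkh-/- and 26.4% in Tdrkh+/- lay inside an annotated gene of that strand, on 11.7% of the bases, and 36.2% and 44.7% lay within 10 kb past the 3′ end of one, on 27.2% of the bases. Mfsd4a weighed on the first share: without the 3 leading genes it was 10.5% and 13.8%, on 11.9% of the bases. By the rule no counted read matches a transcript in sense, so reads inside a gene do not lie wholly in its annotated exons. The share of the bases does include such exons, so the share of reads inside a gene cannot be weighed against it directly. The share past a 3′ end was then 38.5% and 46.9% on 27.5% of the bases. Near no gene of that strand lay 43.6% and 31.4%, on 52.0%. By where most such reads lay, 199 genes were inside, 613 past a 3′ end, 145 within 10 kb ahead of a 5′ end and 665 near none. The short class fell 2-fold or more in 421 of 590 genes past a 3′ end, whose median log2 ratio was -1.88. It did so in 298 of 611 genes near no opposite gene, whose median was -0.97. Across 355 genes with both values, the antisense ratio at 24 to 30 nt and the sense ratio of the neighbour had a Pearson r of -0.01, a description across genes of the same 2 libraries.

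At the first base, U dominated: it began 80.8% (80.6 to 80.9) of short antisense reads without Tdrkh and 84.1% (84.0 to 84.3) in the control, and 82.3% and 74.2% at 31 to 37 nt. Sense reads of the same genes had 74.9% and 78.4%, and 75.1% and 71.8%. The higher share among long antisense reads of Tdrkh-/- came with the leading genes, since without Mfsd4a, Mroh2a and D10Wsu102e it was 72.7% against 74.3% in Tdrkh+/-. By gene, the median share was 83.7% over 1530 genes in Tdrkh-/- and 81.8% over 1496 in Tdrkh+/-. Some genes stood apart: Olfr571, Olfr839-ps1 and Galnt11 started with U in 30%, 28% and 23% of reads in Tdrkh-/-, and in 57.0%, 38.2% and 4.0% in Tdrkh+/-.

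Position 10 was examined in antisense reads that did not start with U, where a ping-pong partner would place A. Short reads of this kind carried A there in 50.1% of cases (49.6 to 50.6) without Tdrkh and in 48.7% (48.3 to 49.1) of Tdrkh+/- cases, against a median of 28.7% and 29.2% over positions 2 to 9 and 11 to 20. In Tdrkh-/- another position was higher, at 52.0%, whereas in Tdrkh+/- the highest other was 43.3%. Long reads reached 62.0% and 56.2%, above all other positions (at most 46.4% and 44.7%). Short reads that did start with U also had this A, in 48.4% and 45.1% of cases, but another position was higher in each library, at 54.1% and 53.2%. Long reads starting with U had it in 48.5% and 31.4%, against a median of 26.7% and 30.9% over the other positions.

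The first 10 bases of a ping-pong pair are complementary. Pairs of 24 to 30 nt from 5 genes with many partnered reads are printed, with the 10 overlapping bases in capitals.
D10Wsu102e antisense: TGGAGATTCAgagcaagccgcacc
D10Wsu102e sense: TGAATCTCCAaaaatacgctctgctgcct
Noct antisense: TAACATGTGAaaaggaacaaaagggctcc
Noct sense: TCACATGTTAtatagtgcttaaggcagggc
Gm10600 antisense: TTCGGAGATAgaaaatacattttgggta
Gm10600 sense: TATCTCCGAAtgagttgtctgtcgtcttt
Zfp697 antisense: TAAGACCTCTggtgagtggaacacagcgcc
Zfp697 sense: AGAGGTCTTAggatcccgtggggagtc
Olfr639 antisense: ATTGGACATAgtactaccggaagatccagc
Olfr639 sense: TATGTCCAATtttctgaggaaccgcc
The D10Wsu102e pair had 56 and 12 antisense and 6181 and 9988 sense reads in Tdrkh-/- and Tdrkh+/-. In the D10Wsu102e, Noct and Gm10600 pairs both reads start with T and carry A at position 10, whereas the Zfp697 antisense read has T and the Olfr639 antisense read starts with A. The Olfr639 sense read matched 15 genes, with 5202 and 507 reads, and its first 22 bases are shared with the sense partner of Olfr839-ps1.

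A 10-nt overlap was the most frequent of all overlaps from 1 to 24 nt when antisense reads with a partner were counted. Each read counted at every place it matched in each gene, so 207745 and 330457 short reads became 221461 and 368220 counts. At 24 to 30 nt 11.8% (11.6 to 11.9) of antisense reads in Tdrkh-/- and 12.1% (11.99 to 12.21) in Tdrkh+/- had a sense read of the same class at that distance, against at most 6.61% and 7.04% at any other overlap. For long reads the shares were 12.2% and 9.74%, against at most 6.61% and 5.25%. The peak at 10 nt was present in both libraries and both size classes, but few genes gave much of it. Of 26072 partnered short counts in Tdrkh-/-, Zfp697 gave 4461, Olfr571 4073, D10Wsu102e 3507 and Olfr639 3369. In Tdrkh+/- D10Wsu102e gave 10895 and Gm10600 4927 of 44553. Whether the peak holds without these genes was not tested. In a 10-nt overlap position 10 of the antisense read faces base 1 of the sense read. Among distinct short sense partners 62.1% and 65.7% started with U, so more A at that position in partnered reads follows from the pairing itself. Of the distinct short antisense sequences with a 10-nt partner 59.8% and 58.3% had A at position 10, against 35.6% and 30.4% of those without. Counted by reads the shares were 52.4% against 46.8% in Tdrkh-/- and 58.0% against 44.4% in Tdrkh+/-. By reads, U began 48.1% of partnered and 84.3% of other short antisense reads in Tdrkh-/-, and 75.2% and 85.3% in Tdrkh+/-.

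**Figure D5:**
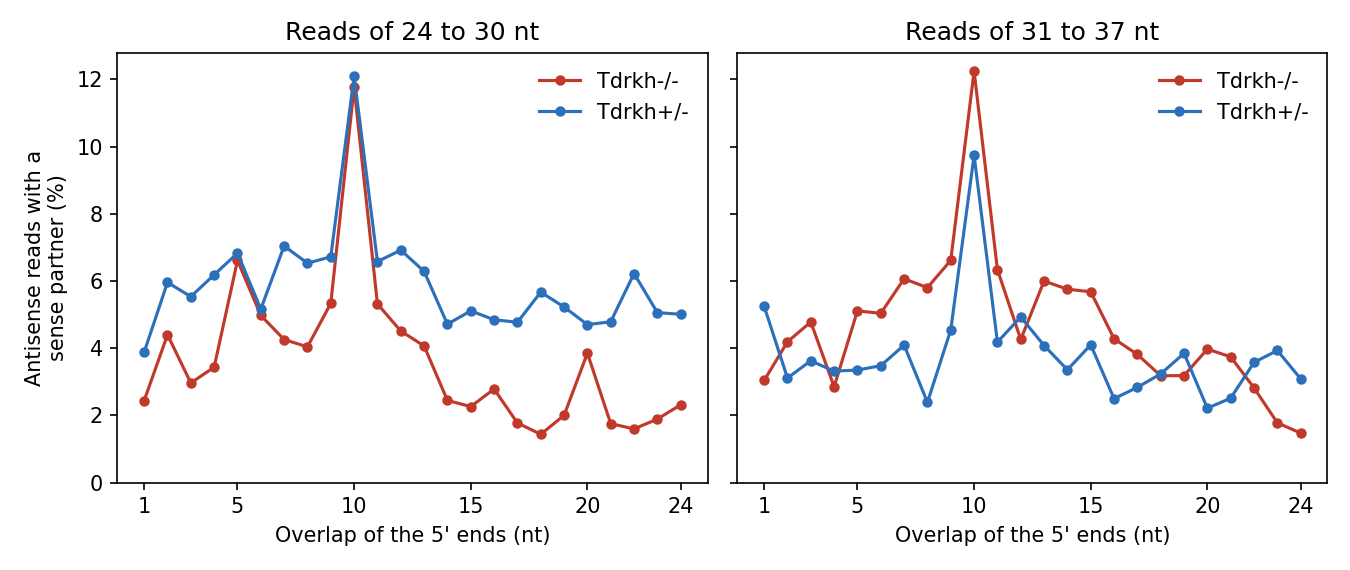
Share of antisense reads that have a sense read whose 5′ end lies at the given overlap (nt), for reads of 24 to 30 nt (left) and 31 to 37 nt (right), in Tdrkh-/- (red) and Tdrkh+/- (blue), 1 library each. All 4 curves are highest at 10 nt, between 9.74% and 12.2%. A read counted at each place it matched.

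Weighed by the product of their reads, 50.7% of short antisense-sense pairs in Tdrkh-/- and 28.5% in Tdrkh+/- overlapped by exactly 10 nt, and 57.5% and 21.6% of long pairs. In the long pairs of Tdrkh+/- another overlap ranked first, with 22.4%. These shares rested on few genes. Slc38a6, an amino acid transporter gene, gave 30.4% and 27.7% of the short pairs, and Vmn1r18, a vomeronasal receptor gene, gave 63.8% of the long pairs in Tdrkh-/-. In Tdrkh+/- the first contributors were D10Wsu102e, with 32.9% of the short pairs, of which 11.2% overlapped by 10 nt, and Noct, with 46.4% of the long pairs, of which 14.4% did. Without Slc38a6 and Vmn1r18, the short shares were 37.2% and 12.04% and the long shares 43.6% and 19.7%, and 10 nt ranked second in both Tdrkh+/- classes. With sequences found in 1 gene alone, the order of the libraries turned for long pairs, 22.6% against 30.9%. Partnered genes were a minority: 260 genes in Tdrkh-/- and 586 in Tdrkh+/- had a short antisense read with a 10-nt partner.

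The share of partnered reads differed widely between genes. These shares count a read at each place it matched in the transcript: the 2605 short Zfp697 reads of Tdrkh-/- gave 4461 partnered places. Zfp697 and Olfr639 had a 10-nt partner for 87.9% and 87.6% of short antisense reads so counted in Tdrkh-/-, and 51.5% and 72.4% in Tdrkh+/-. The leading Zfp697 pair rested on 7 and 6 sense reads. Gm10600 had 57.6% in Tdrkh+/- and no partnered read in Tdrkh-/-, where 95 short reads remained, and its leading pair rested on 0 and 6 sense reads. Noct had 48.1% and 63.6%, and D10Wsu102e 32.3% and 41.8%. Olfr571 had 72.0% in Tdrkh-/- and 0.1% in Tdrkh+/-, with a leading pair that rested on 3 sense reads. Mfsd4a, Mroh2a and Ank3, all over 95% antisense, had at most 0.4% of short reads. Gtpbp8, 96.7% antisense, had 0.46% and 0.95% of short reads but 35.0% and 0.74% of long ones. The long class also differed from the short one elsewhere. Its shares were 0.54% and 0% for Zfp697, 26.2% and 12.2% for Olfr639 and 2.2% and 0% for Olfr571. They were 84.5% and 73.3% for Noct, 61.6% and 21.1% for D10Wsu102e and 0% and 43.2% for Gm10600. Genes with many sense reads also had partners for short reads at other overlaps. The median share there was 17.98% and 32.2% for Noct, 14.26% and 23.29% for D10Wsu102e and 15.29% and 41.09% for Olfr639. It was lower for Zfp697, at 0.24% and 4.15%, and for Gm10600, at 9.95% in Tdrkh+/-.

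Among gene families, vomeronasal and olfactory receptors had 157 antisense genes of 1466 (10.7%), beside 7.79% of all protein-coding genes. Among 145 with at least 20 short reads, 47 rose 2-fold or more in Tdrkh-/- (32.4%, beside 12.6% over all antisense genes) and 28 fell (19.3%, beside 60.4%), around a median log2 ratio of 0.41, beside -1.45 over all antisense genes; per read listed the counts were 31 and 36 and the median -0.01. The long class rose in 122 of 134 (91.0%, beside 79% over all antisense genes) and fell in 0 (beside 3.18%), with a median of 3.22 beside 2.25. Per read listed it rose in 116 (86.6%, beside 69.8%) and fell in 1. Olfr839-ps1 had 869 and 344 short reads (log2 1.26) and 7909 and 143 long reads (log2 5.72), and Olfr639 3846 and 735 (log2 2.31) and 4122 and 304 (log2 3.69). Part of these reads also match other genes: the median gene had 73.4% of reads from sequences in it alone, against 100% over all 1710 genes. Whether those other genes are receptors was not tested.

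Zinc finger genes had 47 antisense genes of 413 (11.4%). Of these, 22 of 44 were lower and 5 higher at 24 to 30 nt (50% and 11.4%, median -1.08), near the 60.4% and 12.6% over all antisense genes, and per read listed 29 were lower (65.9%, beside 69.0%). At 31 to 37 nt 32 of 37 were higher and 1 lower (86.5% and 2.7%, median 2.37), beside 79% and 3.18%. Zfp397 had 401 and 637 short reads and 2156 and 497 long ones. Cytosolic ribosomal protein genes had 9 of 92 (9.78%), of which 7 were lower (77.8%, beside 60.4%) and 0 higher at 24 to 30 nt, with a median of -3.35. For long reads 4 of 7 were higher (57.1%, beside 79%). Rps16 had 13 and 159 short reads and 238 and 8 long reads, log2 ratios of -3.69 and 4.82, though 2.6% of its reads were from sequences in Rps16 alone. Rps28 had 33 and 199 short and 113 and 31 long reads, most of them within Kank3 on the other strand.

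The germline lists held few antisense genes, in shares near the 7.79% of all protein-coding genes: 2 of 27 for the piRNA pathway (7.41%), 1 of 17 for spermatogonia (5.88%) and 2 of 21 for early meiosis (9.52%). The piRNA pathway genes were Exd1, an adaptor of the pathway, and Henmt1, which methylates piRNA 3′ ends. Exd1 had 13 and 31 short reads and 33 and 21 long reads, and Henmt1 0 and 35 short and 9 and 33 long. With the 0 set to 3 counts the short Henmt1 reads were 12.3-fold fewer, and the interval reached up to a log2 ratio of -3.24. Among spermatogonial genes Nanos2, an RNA-binding protein of spermatogonial stem cells, had 4 and 21 short and 15 and 11 long reads. Among early meiotic genes Msh4, of crossover formation, had 8 and 127 short and 28 and 9 long reads, and Sycp1, of the synaptonemal complex, 10 and 38 short and 3 and 2 long reads. Fewer short reads without Tdrkh were thus seen in each of these 5 genes, as in most antisense genes. Over all of them 60.4% were at least 2-fold lower, around a median log2 ratio of -1.45. Counts this low leave wide intervals, from -5.30 to -3.04 for the log2 ratio of short reads of Msh4.

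Histone genes had 2 of 101 (1.98%): Hist1h4i with 98 and 56 short reads and 7 and 4 long reads, and H1foo, the oocyte linker histone, with 6 and 46 and 19 and 1. Genes derived from transposons had 2 of 23 (8.70%). Arc, which encodes a Gag-like protein, had 5 and 67 short reads and 0 and 10 long ones, and Syna, an envelope-derived syncytin gene, 34 and 26 and 11 and 1. Detoxification families had 9 of 173 (5.20%), with 5 lower (55.6%, near the 60.4% of all antisense genes) and 2 higher at 24 to 30 nt, or 1 higher per read listed. Gstt2, a glutathione transferase gene, had 242 and 86 short and 113 and 7 long reads, and Cyp4x1, a cytochrome P450 gene, 96 and 46 and 40 and 13. Immune families had 3 of 81 (3.70%), with Skint8 at 49 and 16 short and 101 and 3 long reads and Skint4 at 57 and 90 short and no long reads. Multi-copy testis families had 5 of 106 (4.72%), of which 4 were lower at 24 to 30 nt (80%, beside 60.4%), but Tcp10a, Tcp10b and Tcp10c share reads, so these are not 4 separate loci. Tcp10c had 14 and 30 short and 8 and 7 long reads, and Speer4e 4 and 48 and 1 and 0.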

How the data were processed

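Per the labels' protocols, testis RNA was size-selected on a gel and read on an Illumina Genome Analyzer II. Each deposited table lists the distinct sequences of 1 library with their raw counts. Bowtie and the build mm9 appear in the submitters' processing notes, and which versions were used, and how adapters or reads were filtered, is not given in the sources used here. Every sequence of 24 to 37 nt was compared here with the GENCODE M21 transcripts (GRCm38), and a match had to be exact from end to end on either strand. The matcher ran in Python 3.11.15 (Numba 0.67.0 and NumPy 2.4.6, with pandas 2.3.3 and SciPy 1.17.1), and was checked by plain text search on 120 sequences with 0 differences in strand; figures used Matplotlib 3.10.9. The ratio and interval code was tested on simulated data. No genome sequence was used.

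A read counted whole in every gene it matched, and once in sums over genes. Levels are reads per microRNA read (18 to 25 nt, exact in microRNA hairpins), and ratios are Tdrkh-/- over Tdrkh+/-. Genes needed at least 20 reads in a size class for a ratio, a minimum chosen after seeing the data. A count of 0 was set to 3 counts per library for the ratio but not for its interval, so the interval can allow a smaller change than the ratio given. The 95% intervals are Wilson's for shares and, for ratios, exact binomial ones conditional on the summed reads. Overlaps of 1 to 24 nt used 1 transcript per gene and sense reads in at most 20 genes. For overlaps a read counted at each place it matched in each gene's transcript, also in sums over genes. Regions were taken from coding annotation. Named genes were the 12 with most antisense reads, the 5 highest and 5 lowest ratios at 24 to 30 nt among genes with at least 500 such reads, the 5 with most 10-nt partners and the 2 most abundant of each gene list, with genes that share most of their reads given as 1 family; Slc38a6, Vmn1r18, Gata1, Cntn2 and the neighbouring genes were named after their values were seen. The members, lists and rules were chosen with earlier results of these data known. Alternatives were other scalings, distinct sequences, sequences in 1 gene, narrower windows and other minimums.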

Additional observations from a re-analysis of the deposited data

How the results depend on the processing

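The direction of both summed ratios was the same under every alternative run, 0.598 at 24 to 30 nt and 6.62 at 31 to 37 nt by microRNA reads. They were 0.445 and 4.93 per read listed, 0.44 and 4.87 per read matching a transcript in sense, 0.623 and 7.06 without sequences read once, 0.602 and 7.26 for sequences in 1 gene alone, 0.401 and 10.3 in windows of 26 to 28 and 33 to 36 nt, and 0.549 and 4.61 without the 3 leading genes. Counting each distinct sequence once gave 0.287 and 1.56, a measure that also follows library depth. The count of genes at least 2-fold higher at 31 to 37 nt was then 154 of 430 (35.8%) in place of 1092 of 1383 (79%), and the cause of the lower share was not tested. Among genes with at least 200 reads, 278 of 520 were at least 2-fold lower at 24 to 30 nt and 414 of 510 higher at 31 to 37 nt. The rule would take 3189 genes at 20 reads, 531 at 200 reads and 417 at 50 distinct sequences.

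Shares are given in the order Tdrkh-/- and Tdrkh+/- at 24 to 30 nt, then at 31 to 37 nt. Reads starting with U made up 80.8%, 84.1%, 82.3% and 74.2%. With distinct sequences counted once this was 69.1%, 70.6%, 71.1% and 68.4%, without sequences read once 81.0%, 85.0%, 82.4% and 74.8%, for sequences in 1 gene alone 83.3%, 86.6%, 84.2% and 76.8%, in the narrow windows 82.9%, 84.8%, 84.0% and 75.4%, and without the 3 leading genes 69.4%, 79.4%, 72.7% and 74.3%. A at position 10 without a starting U, 50.1%, 48.7%, 62.0% and 56.2%, became 43.7%, 39.0%, 45.7% and 42.9% by distinct sequences, 50.2%, 50.1%, 62.2% and 58.0% without sequences read once, 43.6%, 42.5%, 59.6% and 53.3% for 1 gene alone, 57.4%, 46.6%, 58.0% and 47.6% in the narrow windows and 51.1%, 47.2%, 67.7% and 52.7% without the 3 genes. The share of pairs at 10 nt, 50.7%, 28.5%, 57.5% and 21.6%, became 12.3%, 7.95%, 11.4% and 9.80% by distinct sequences, 51.2%, 29.0%, 57.7% and 21.8% without sequences read once, 68.3%, 55.2%, 22.6% and 30.9% for 1 gene alone, 25.03%, 11.6%, 55.9% and 17.8% in the narrow windows, 51.7%, 32.2%, 58.1% and 21.7% on the longest transcript and 55.6%, 37.1%, 60.0% and 22.7% without the 3 genes. Without Slc38a6 and Vmn1r18 it was 37.2%, 12.04%, 43.6% and 19.7%. The median over genes with any pair was 0 in each library and class. Leaving out named genes was chosen after seeing the data.

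For the 38 named genes, 16 of 441 alternative log2 ratios had the opposite sign to a reported ratio of at least 2-fold, and 160 others left the counting interval. The sign also changed in 20 where the reported ratio was under 2-fold, in 9 genes, among them Mfsd4a, Nanos2, Tcp10c and Syna under either other scaling. Of the 16, the ratio turned by distinct sequences at 24 to 30 nt for Olfr571 (-0.30), Olfr839-ps1 (-0.44), Olfr639 (-0.25), Tkfc (-1.40), Gimap6 (-0.073), Skint8 (-0.49) and Gstt2 (-2.61), and at 31 to 37 nt for Echdc2 (-0.038) and Tkfc (-0.78). For sequences in 1 gene alone it turned at 24 to 30 nt for Olfr639 (-0.61), Galnt11 (0.63) and Gstt2 (-3.71) and at 31 to 37 nt for Gm10600 (0.51). In the narrow windows it turned at 24 to 30 nt for Olfr839-ps1 (-0.26) and Gstt2 (-1.66) and at 31 to 37 nt for H1foo (-0.073). The cause of these changes was not tested.

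No paired analysis was possible because each genotype has 1 library, so the shared replicate number pairs nothing. Counting intervals understate the error, because no molecular identifiers mark amplified copies and no library was repeated. Genes near 50 reads have wide intervals, from -4.47 to -0.90 for the log2 ratio of short Nanos2 reads. Only annotated exons were searched, so antisense reads of introns and of unannotated transcripts were not counted, and a sequence that also lies outside the annotated transcripts was not recognised as shared.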
